A study of Mus musculus with 12 samples.

Results

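The question was whether microparticles act on macrophage transcripts in the same way when lipopolysaccharide is present as when it is absent. J774A.1 cells, a macrophage-like line of BALB/c mouse origin, were compared in 4 groups of 3 biological replicates: cells given LPS and microparticles together (LPS+MP), cells given LPS, cells given microparticles (MP), and mock-treated cells (control). All 12 of the 12 samples and 11745 of the 11762 genes in the deposited table enter the comparison; the other 17 genes did not reach 1 in at least 3 libraries. Every group is the same cell line, and what the microparticles were made of, how large they were, how much was given and for how long is not stated in the sources used here.

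The measure throughout is the interaction, the effect of microparticles in LPS-treated cells (LPS+MP minus LPS) minus their effect in cells without LPS (MP minus control), on log2(CPM + 1), where CPM is a gene's reads as a share of its library, scaled to a total common to all libraries. A value of 0 means that the log2 effects of the 2 agents add. A positive interaction means that LPS+MP cells lie above that sum and a negative one that they lie below it. An interaction was called higher or lower at an adjusted p under 0.05 (limma, Benjamini-Hochberg over the 11745 genes) and a size over 1, which is 2-fold. The single effects of each agent were called rises and falls by the same thresholds in the same fit. Shares of all genes set against a list are shares called by these thresholds, except beside counts with no demand on size. Those counts and their shares use the adjusted p threshold alone. Levels are CPM in replicates 1, 2 and 3 of each group, and differences are log2 with their SE.

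As background, LPS is sensed by Toll-like receptor 4, whose adaptor proteins lead to NF-kB, MAP kinase and interferon regulatory factor activity and so to cytokine, chemokine and interferon-response transcripts. Macrophages take up particles by phagocytosis and macropinocytosis, and particle uptake can load lysosomes, change redox balance and engage the amino acid and oxidative stress programmes driven by ATF4 and NRF2. Activated macrophages also shift towards glycolysis and leave the cell cycle. A 2 by 2 design asks which of these responses combine additively.

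The cells carried macrophage transcripts in every library. All 10 macrophage markers examined, among them Emr1 (F4/80), Csf1r and Cd68, passed the filter, with a summed level of 6219 to 6414 CPM in LPS+MP cells, 7891 to 8955 CPM in LPS cells, 6292 to 6629 CPM in MP cells and 6114 to 6773 CPM in control cells. None of the markers of T cells, B cells, mast cells, epithelial cells or erythroid cells passed it. Of the other types' markers, 2 of neutrophils passed it, with a summed level of 2.36 to 5.08 CPM in LPS+MP cells, 4.14 to 6.04 CPM in LPS cells, 1.36 to 2.14 CPM in MP cells and 1.30 to 2.67 CPM in control cells. The 1 fibroblast marker that did, Pdgfra, had 6.90 to 7.97 CPM in LPS+MP cells, 7.67 to 10.8 CPM in LPS cells, 1.99 to 2.35 CPM in MP cells and 1.00 to 1.64 CPM in control cells. The 2 endothelial markers, Pecam1 and Cdh5, summed to 1.81 to 2.29 CPM in LPS+MP cells, 5.17 to 6.85 CPM in LPS cells, 1.29 to 2.02 CPM in MP cells and 2.35 to 3.06 CPM in control cells. Each of these sets had its highest value in an LPS library, and their part in the results was not tested. A lower level of a transcript in bulk RNA can reflect fewer cells that carry it or less of it per cell, which cannot be told apart here.

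One library stood apart. LPS replicate 2 had 339 genes over 1 log2 unit away from the mean of the remaining pair of LPS libraries. The same count was 29 for LPS replicate 1, 17 for LPS replicate 3, and between 1 and 8 for each library of the remaining groups. Its deviations ran with transcript GC content across genes (Spearman -0.60), and the median SD of a gene was 0.19 log2 units in LPS cells, against 0.09 in LPS+MP cells, 0.10 in MP cells and 0.08 in control cells. Across genes the interaction itself correlated with GC content (Spearman 0.29), and less so without this library (0.10). Values without LPS replicate 2 are therefore given beside many of the results below.

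The interaction was called for 552 genes (4.7% of those tested). It was higher in 120 genes (1.02%) and lower in 432 genes (3.68%); without LPS replicate 2 these counts were 98 and 432, and 454 of the 552 calls were shared. With no demand on size, 2583 genes passed the adjusted p threshold (22%), 757 higher (6.45%) and 1826 lower (15.5%). The median interaction over all genes was -0.08 and its median SE 0.16. Quantile normalization, which moved that median by 0.09, gave 193 higher and 306 lower calls, so the share of called genes that lay above the additive level was 21.7% as analysed and 38.7% after it.

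Microparticles lowered more genes than they raised in the presence of LPS, with 74 rises (0.63%) and 457 falls (3.89%) among 531 calls (4.52%). Without LPS there were 214 rises (1.82%) and 217 falls (1.85%) among 431 calls (3.67%). Both tests use 1 variance per gene over all groups. The median SD was 0.19 in LPS cells and 0.08 to 0.10 in the other groups. The error may thus be understated with LPS and overstated without it. These pairs of effects use separate libraries. Over the 11745 genes they had a Spearman correlation of 0.44, a description of genes that share their libraries.

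**Figure D1:**
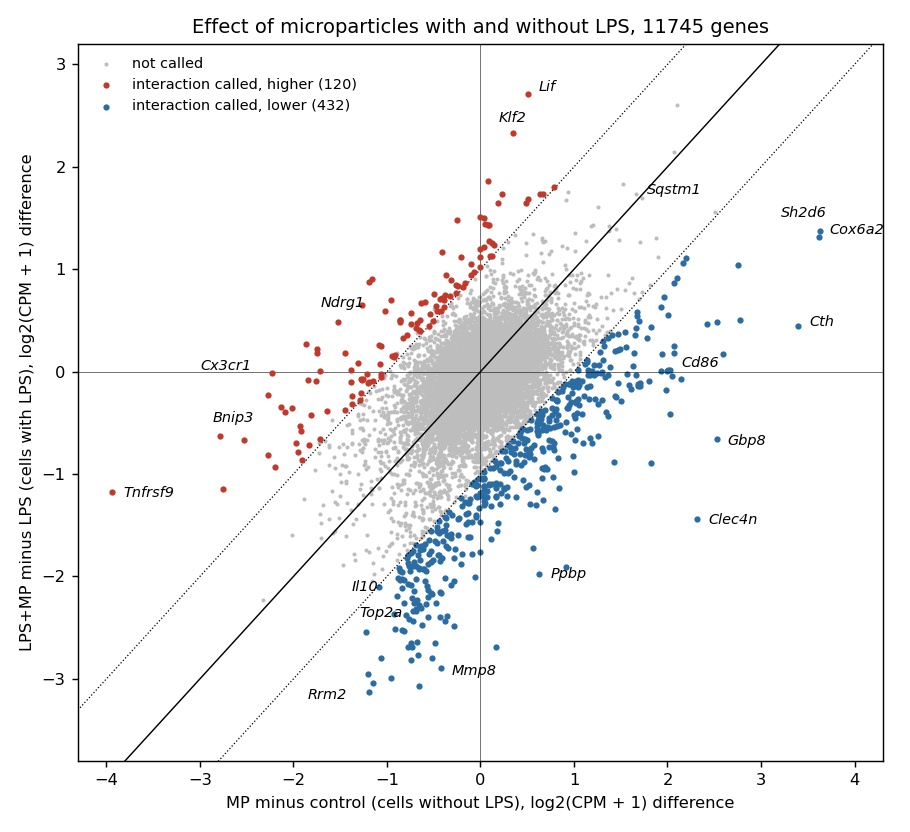
Effect of microparticles in cells with LPS (vertical axis, LPS+MP minus LPS) against their effect in cells without LPS (horizontal axis, MP minus control), both as differences of log2(CPM + 1), 1 point per gene for 11745 genes. The solid line marks equal effects and the dotted lines a difference of 1; the 120 genes called higher lie above the upper dotted line and the 432 called lower lie below the lower one.

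Among the 432 genes with a lower interaction, 200 fell with microparticles in LPS-treated cells and were not called without LPS. A further 104 rose with microparticles in the absence of LPS and were not called in its presence, and 116 passed neither single test. Of the remaining 12, 6 fell in both settings (2810417H13Rik, Cdc6, Clspn, Mcm7, Rrm2 and Tlr8) and 5 rose in both (Cox6a2, Ddit3, Gsta3, Neat1 and Sh2d6). Clec4n alone rose without LPS and fell with it. Without LPS replicate 2 the lower interaction was still called in 170 of the 200, 97 of the 104 and 89 of the 116. Among the 120 genes with a higher interaction, 50 fell with microparticles without LPS and were not called with it. A further 28 rose with LPS and were not called without it, and 40 passed neither test. The higher interaction was still called without LPS replicate 2 in 43 of the 50, 19 of the 28 and 22 of the 40. Cytip and Tnfrsf9 fell in both settings, by less in the presence of LPS.

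**Figure D2:**
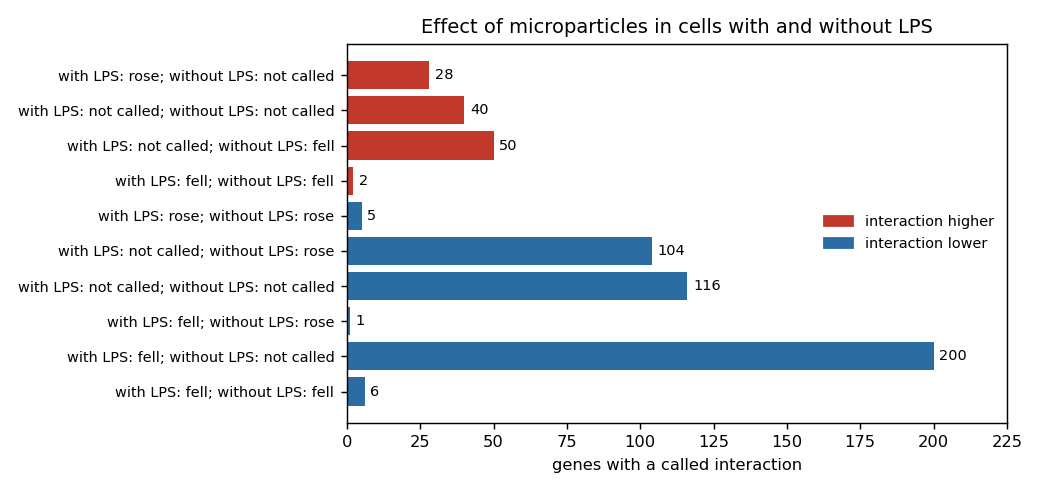
Number of genes with a called interaction (horizontal axis) by what microparticles did to the gene in cells with and without LPS; red bars are the 120 higher calls and blue bars the 432 lower calls. The longest bar holds the 200 genes that fell with microparticles only past the threshold in LPS-treated cells.

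Set out by the effect of LPS instead, 123 of the 432 lower genes fell with LPS both with and without microparticles, 120 rose with LPS alone and were not called when microparticles were present, and 77 rose in both settings. Only Extl1 and Gbp8 rose with LPS alone and fell when LPS was added to microparticles. In the 120 higher genes, 42 fell with LPS alone and were not called when microparticles were present, and 19 rose with LPS only past the threshold in cells that also had microparticles. Of the lower genes in these classes, 104 of the 123, 110 of the 120 and 70 of the 77 were still called without LPS replicate 2. Of the higher genes, 31 of the 42 and 14 of the 19 were. Over all genes LPS called 671 rises (5.71%) and 926 falls (7.88%) in cells with microparticles, and 975 rises (8.3%) and 945 falls (8.05%) in cells without them.

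Additivity depends on the scale. When the same difference of differences was taken on the group means in CPM, 119 of the 120 higher genes kept a positive sign and 329 of the 432 lower genes kept a negative one. The other 103 lower genes had a positive value in CPM, most of them in the class of 200, where 108 kept the sign. The sign in CPM, a description with no test, is given below for each gene described where it is opposite.

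**Figure D3:**
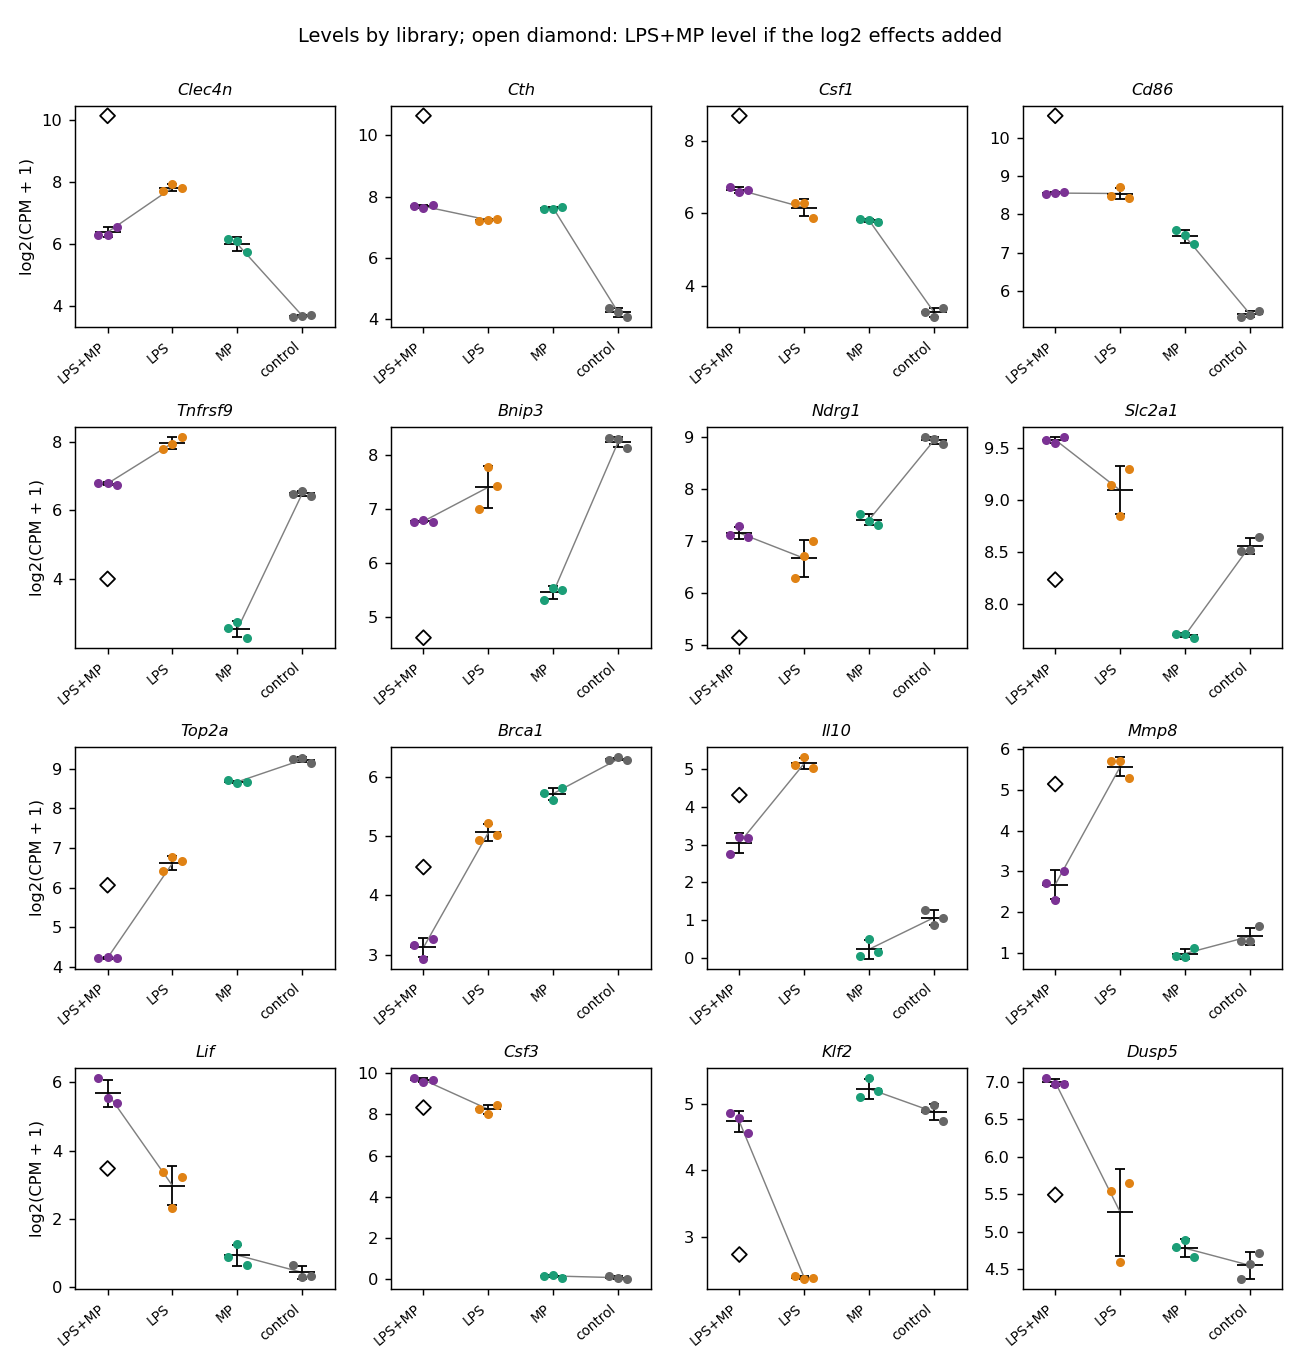
Levels of 16 genes as log2(CPM + 1) in each library, with the mean and SD of each group (n = 3) and an open diamond at the level that LPS+MP cells would have if the log2 effects of LPS and of microparticles added. LPS+MP cells lie below the diamond in the top row (Clec4n to Cd86) and in Top2a, Brca1, Il10 and Mmp8, and above it in the rows that start with Tnfrsf9 and Lif.

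Among called genes with a mean of at least 1 CPM in every group, the interaction furthest from 0 was that of Clec4n. Genes with predicted or clone names (Gm, LOC, BC, AK and Rik) were left out of that ranking. Clec4n encodes dectin-2, a C-type lectin receptor for fungal mannans. Clec4n had 76.8, 77.1 and 92.7 CPM in LPS+MP cells, against 208, 242 and 222 CPM in LPS cells. In MP cells it had 70.1, 66.5 and 52.4 CPM, against 11.5, 11.6 and 12.1 CPM in control cells. The groups of each pair did not overlap, and the order was turned round: microparticles lowered the gene with LPS by 1.44 and raised it by 2.32 without LPS. The interaction was -3.76 ± 0.15 (limma adjusted p = 7.7e-10) and -3.70 without LPS replicate 2.

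Gbp8, a guanylate-binding protein of the interferon-induced family, was highest with microparticles alone. It had 11.2, 8.26 and 7.55 CPM in LPS+MP cells, against 13, 23.6 and 10.1 CPM in LPS cells, values that overlap. It had 29.6, 29.6 and 29.8 CPM in MP cells, against 4.02, 4.20 and 4.81 CPM in control cells. The interaction of Gbp8 was -3.19 ± 0.31 (limma adjusted p = 4.3e-06), and -2.86 without LPS replicate 2, which held the highest of the LPS values.

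Transcripts that microparticles induced in cells without LPS formed a large class whose response was smaller or not detected with LPS. The ATF4 programme of amino acid shortage was represented there: of 25 tested members of the ATF4 target list, 5 had a lower interaction and 0 a higher one (limma), against 3.68% and 1.02% of all genes. With no demand on size these counts were 14 and 0, against 15.5% and 6.45% of all genes. The list median was -0.40, against -0.08 over all genes, with a median effect of microparticles of 0.43 with LPS and 0.67 without. The counts of called members were the same without LPS replicate 2.

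Cth, cystathionine gamma-lyase of the transsulfuration pathway that makes cysteine, had 207, 198 and 208 CPM in LPS+MP cells, against 147, 150 and 151 CPM in LPS cells. It had 193, 194 and 200 CPM in MP cells, against 19.6, 17.7 and 15.8 CPM in control cells. All libraries given either agent or both thus lay between 147 and 208 CPM, far above control cells. Its interaction was -2.95 ± 0.10 (limma adjusted p = 2.2e-10), with an effect of microparticles of 0.45 with LPS and 3.40 without.

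Slc7a11, the cystine importer xCT that supplies glutathione synthesis, had 324, 277 and 339 CPM in LPS+MP cells, against 240, 226 and 212 CPM in LPS cells. In MP cells it had 47.7, 49.9 and 46.5 CPM, against 8.71, 7.33 and 8.55 CPM in control cells. No library of one group overlapped its counterpart in either pair. The interaction was -1.95 ± 0.13 and the same without LPS replicate 2, while the difference in CPM was positive (47.4).

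Trib3, a pseudokinase induced by ATF4 and CHOP, had 128, 132 and 115 CPM in LPS+MP cells, against 85.9, 84.5 and 86.0 CPM in LPS cells, and its interaction was -1.14 ± 0.09. In MP cells it had 237, 251 and 240 CPM, against 73.9, 74.5 and 77.0 CPM in control cells. Ddit3, which encodes CHOP itself, rose with microparticles in both settings, by 1.11 with LPS and 2.19 without, for an interaction of -1.08 ± 0.12. Asns, asparagine synthetase, had effects of 0.50 and 1.12 in the same order; its interaction of -0.62 ± 0.10 missed the size threshold.

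The promoter of Slc7a11 is shown because it holds 2 matches to the letters TGATGNAA (the amino acid response element bound by ATF4 as searched here, on either strand), which are in capitals. It was picked for display after the match was found. The sequence is the 250 bases before the RefSeq start on GRCm38.p6, read along the gene's strand, at chr3:50443614-50443863 (minus strand).

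Slc7a11: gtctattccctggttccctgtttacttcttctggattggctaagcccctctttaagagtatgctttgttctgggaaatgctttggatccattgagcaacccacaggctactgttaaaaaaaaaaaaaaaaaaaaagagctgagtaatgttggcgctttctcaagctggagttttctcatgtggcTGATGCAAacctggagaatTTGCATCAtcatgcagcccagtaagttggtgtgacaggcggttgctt

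These letters occur in 8 of the 26 ATF4 target promoters found in the RefSeq table (30.8%) and in 954 of all 27025 promoters there (3.53%). The list was drawn from genes known as ATF4 targets, so the share describes the list and not these data.

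Of 29 tested targets of NRF2, the factor of the oxidative stress response, 2 had a lower interaction and 0 a higher one (limma). The shares of all genes were 3.68% and 1.02%. The list median was -0.18, against -0.08 over all genes. Counted with no demand on size, 6 were lower and 1 higher, against 15.5% and 6.45% of all genes. The 2 called were Slc7a11, which is in the ATF4 list too, and Gsta3, a glutathione transferase. Gsta3 had 7.71, 7.67 and 6.21 CPM in LPS+MP cells, against 2.91, 3.57 and 2.52 CPM in LPS cells, and 12, 12.9 and 15.0 CPM in MP cells, against 1.14, 1.30 and 0.935 CPM in control cells. Microparticles raised it in both settings, and the interaction was -1.71 ± 0.21. Gclm, the modifier subunit of glutamate-cysteine ligase, rose by 1.12 with LPS and 1.90 without; its interaction of -0.78 ± 0.09 missed the size threshold.

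Sqstm1, the autophagy receptor p62 and an NRF2 target, gave an example of near addition. It had 2172, 2379 and 2168 CPM in LPS+MP cells, against 673, 629 and 719 CPM in LPS cells. It had 1453, 1463 and 1365 CPM in MP cells, against 462, 440 and 450 CPM in control cells. Microparticles raised it by 1.73 with LPS and 1.66 without, and the interaction was 0.07, with a 95% confidence interval from -0.15 to 0.29. Hmox1, heme oxygenase, lay above the additive level by 0.57 ± 0.13, short of the size threshold.

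Microparticles alone raised Cox6a2 and Sh2d6 the most among the genes described here. Cox6a2, a muscle isoform of a cytochrome c oxidase subunit, had 6.33, 5.34 and 4.91 CPM in LPS+MP cells, against 2.04, 1.29 and 1.58 CPM in LPS cells. It had 16.3, 16.2 and 18.3 CPM in MP cells, against 0.381, 0.520 and 0.465 CPM in control cells, and its interaction was -2.31 ± 0.21. Sh2d6, an SH2 domain protein, rose by 1.37 with LPS and 3.63 without, for an interaction of -2.26 ± 0.25. Neat1, the long noncoding RNA of paraspeckles, rose by 1.06 with LPS and 2.16 without; its call of -1.11 ± 0.17 was lost under quantile normalization (-0.89) and after an adjustment for GC content, and its difference in CPM was positive (526).

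Of 25 tested classical activation effectors, 9 had a lower interaction and 0 a higher one (limma), against 3.68% and 1.02% of all genes. These immune genes had a median LPS effect of 2.56 in cells with microparticles and 3.35 in cells without. Interactions with no demand on size were lower in 15 and higher in 2, against 15.5% and 6.45% of all genes. The list median was -0.72, with a median effect of microparticles of 0.02 with LPS and 0.61 without; 0 members rose and 2 fell with microparticles in LPS-treated cells, whereas 9 rose and 1 fell in cells without LPS. The shares of all genes were 0.63% and 3.89% with LPS, and 1.82% and 1.85% without. Without LPS replicate 2 the count of lower calls was 10.

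Cd86, the costimulatory ligand of CD28, had 368, 375 and 382 CPM in LPS+MP cells, against 358, 420 and 342 CPM in LPS cells, and these values overlap. It had 190, 175 and 149 CPM in MP cells, against 39.1, 40.6 and 43.4 CPM in control cells. The effect of microparticles was 0.01 with LPS and 2.03 without, and the interaction was -2.02 ± 0.13 (limma adjusted p = 1.3e-07).

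C3, the central complement component, followed the same pattern at a higher level, with 1769, 1619 and 1631 CPM in LPS+MP cells, against 1929, 1796 and 1746 CPM in LPS cells. It had 349, 308 and 274 CPM in MP cells, against 87.6, 94.8 and 105 CPM in control cells, and its interaction was -1.81 ± 0.13. Lcn2, the siderophore-binding lipocalin, had an effect of microparticles of 0.25 with LPS and rose by 2.07 without; its interaction was -1.82 ± 0.15, while its difference in CPM was positive (262). Lcn2 averaged 3.96 ± 0.87 CPM in MP cells and 0.17 ± 0.04 CPM in control cells (SD, n = 3 each), and with 0.1 added in place of 1 the interaction was -3.65. Il1rn, the interleukin-1 receptor antagonist, had an interaction of -1.30 ± 0.12 and Cd274, the checkpoint ligand PD-L1, one of -1.45 ± 0.16, both again with a positive difference in CPM (66.7 for Il1rn and 154 for Cd274).

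Csf1, the growth factor on which macrophages depend, had 105, 94.8 and 98.5 CPM in LPS+MP cells, against 77.6, 77.5 and 58.1 CPM in LPS cells. It had 56.2, 55.4 and 53.4 CPM in MP cells, against 8.83, 7.88 and 9.45 CPM in control cells. Microparticles raised it by 2.53 without LPS, and the interaction was -2.04 ± 0.15. In Ass1, argininosuccinate synthase of the arginine-recycling route, the effects were 0.33 with LPS and 1.78 without, and the interaction was -1.45 ± 0.13.

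The prostaglandin list had 5 lower and 0 higher calls among 15 tested genes (limma), against 3.68% and 1.02% of all genes. It had 4 lower calls without LPS replicate 2. Dropping the demand on size gave 8 lower and 0 higher, against 15.5% and 6.45% of all genes. Ptger2, the EP2 receptor for prostaglandin E2, had 48.0, 51.9 and 54.7 CPM in LPS+MP cells, against 43.8, 46.1 and 47.3 CPM in LPS cells, and 30.7, 35.2 and 31.2 CPM in MP cells, against 5.20, 3.79 and 4.62 CPM in control cells. Its interaction was -2.43 ± 0.15. Ptgs2, the inducible cyclooxygenase COX-2, had an effect of 0.91 with LPS and 2.11 without; its interaction of -1.19 ± 0.17 was below the threshold size under quantile normalization (-0.95) and not called after an adjustment for GC content, and its difference in CPM was positive (1432).

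Gadd45a, a growth-arrest and DNA-damage-inducible protein, had 73.3, 68.3 and 60.3 CPM in LPS+MP cells, against 71.5, 62.6 and 79.2 CPM in LPS cells. It had 120, 111 and 105 CPM in MP cells, against 24.2, 24.9 and 24.5 CPM in control cells. The highest level was thus in MP cells, with an interaction of -2.22 ± 0.13. Ern1, which encodes the endoplasmic reticulum stress sensor IRE1, had an interaction of -1.23 ± 0.11, and was the only 1 of 20 tested genes of the unfolded protein response list called, against 4.7% of all genes, so this list was near the background. Ticam2, the TLR4 adaptor TRAM, had an interaction of -1.82 ± 0.14, and Nfil3, a basic leucine zipper factor, one of -1.70 ± 0.16.

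**Figure D4:**
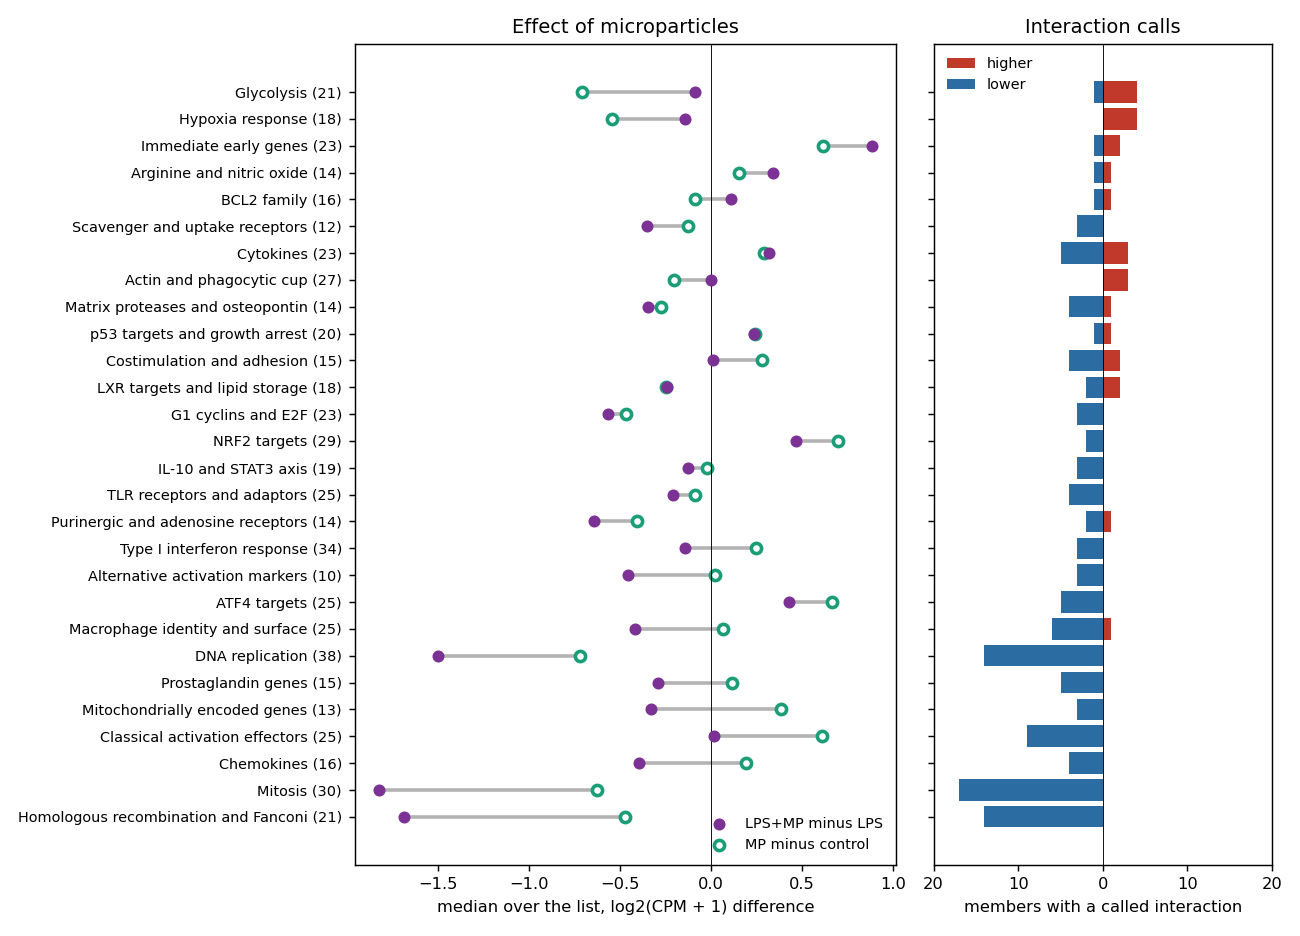
Gene lists with at least 2 called members, ordered by median interaction, with the number of genes tested in parentheses. The left panel gives the median effect of microparticles over the list as a log2(CPM + 1) difference with LPS (filled) and without LPS (open), and the right panel the number of members with a higher (red) or lower (blue) interaction; Mitosis and Homologous recombination and Fanconi have the lowest medians, -1.06 and -1.20, and Glycolysis and Hypoxia response the highest, 0.61 and 0.60.

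Glycolytic and hypoxia-response genes lay on the other side of additivity. In cells without LPS, 5 of 18 hypoxia-response genes and 3 of 21 glycolysis genes fell with microparticles and 0 rose; in LPS-treated cells 0 fell in either list and 1 hypoxia-response gene rose. Over all genes, 1.85% fell without LPS, and 3.89% fell and 0.63% rose with it. Of 18 tested hypoxia-response genes, 4 had a higher interaction and 0 a lower one (limma), against 1.02% and 3.68% of all genes. Of 21 glycolysis genes, 4 were called higher and 1 lower. In the hypoxia list 12 were higher and 2 lower with no demand on size, against 6.45% and 15.5% of all genes. The list medians were 0.60 and 0.61, and the median effect of microparticles in the hypoxia list was -0.14 with LPS and -0.54 without, and in the glycolysis list -0.09 and -0.70. The counts of called interactions were the same without LPS replicate 2.

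Bnip3, a mitophagy receptor and HIF-1 target, had 108, 110 and 108 CPM in LPS+MP cells, against 128, 219 and 171 CPM in LPS cells. It had 39.1, 45.9 and 44.7 CPM in MP cells, against 317, 312 and 281 CPM in control cells. Both pairs were separate, but the gap was larger without LPS. The interaction was 2.15 ± 0.19 (limma adjusted p = 2.3e-06) and 2.34 without LPS replicate 2.

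Ndrg1, a hypoxia-induced growth-regulated gene, had 137, 155 and 134 CPM in LPS+MP cells, against 77.9, 104 and 127 CPM in LPS cells. It had 184, 167 and 158 CPM in MP cells, against 509, 492 and 462 CPM in control cells. LPS+MP cells lay above LPS cells by 0.49, whereas microparticles lowered Ndrg1 by 1.52 without LPS, for an interaction of 2.01 ± 0.18. Kdm3a, a hypoxia-induced histone demethylase, had an interaction of 1.07 ± 0.12. Ankrd37 had 1.46 ± 0.44 at levels under 10 CPM, a call that was lost when any of 5 libraries was left out, and 2.61 with 0.1 added in place of 1.

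Slc2a1, the glucose transporter GLUT1, had 766, 748 and 781 CPM in LPS+MP cells, against 564, 458 and 628 CPM in LPS cells. It had 208, 209 and 203 CPM in MP cells, against 364, 365 and 400 CPM in control cells. Slc2a1 was thus higher with microparticles in one setting and lower in the other, by 0.49 and -0.86, and the interaction was 1.35 ± 0.13 (1.22 without LPS replicate 2).

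Pfkl, the liver-type phosphofructokinase, had 121, 123 and 124 CPM in LPS+MP cells, against 172, 138 and 174 CPM in LPS cells, and 73.7, 83.7 and 86.5 CPM in MP cells, against 259, 257 and 248 CPM in control cells. Its interaction was 1.26 ± 0.12. Ldha, lactate dehydrogenase A, had 1070, 1139 and 1071 CPM in LPS+MP cells, against 1200, 1168 and 1438 CPM in LPS cells, and its effect of microparticles was -1.28 without LPS; the interaction was 1.07 ± 0.13. For Tpi1, triosephosphate isomerase, it was 1.09 ± 0.10, and 0.99 under quantile normalization. Neither Ldha nor Tpi1 was called with library quality weights. Pfkfb3, which makes the allosteric activator of phosphofructokinase, was the exception, with an interaction of -1.34 ± 0.15.

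The promoters of Bnip3 and Slc2a1 are shown because both hold the hypoxia response core ACGTG, in capitals. They too were chosen after the match was found. Each is the 250 bases before the RefSeq start on GRCm38.p6, read along the gene's strand: chr7:138909507-138909756 (minus strand) for Bnip3, where the palindrome CACGTG matches on both strands, and chr4:119108495-119108744 (plus strand) for Slc2a1.

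Bnip3: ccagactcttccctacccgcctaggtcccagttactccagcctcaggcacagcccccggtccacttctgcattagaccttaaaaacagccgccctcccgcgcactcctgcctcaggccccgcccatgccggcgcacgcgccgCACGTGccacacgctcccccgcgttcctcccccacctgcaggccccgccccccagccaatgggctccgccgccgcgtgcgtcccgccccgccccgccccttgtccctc
Slc2a1: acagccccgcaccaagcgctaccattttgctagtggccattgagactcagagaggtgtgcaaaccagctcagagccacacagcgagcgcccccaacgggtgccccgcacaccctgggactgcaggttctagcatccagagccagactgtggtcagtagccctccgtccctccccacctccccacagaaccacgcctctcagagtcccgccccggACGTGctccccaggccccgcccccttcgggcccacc

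The core occurs in 9 of 19 hypoxia-response promoters (47.4%), 10 of 21 glycolysis promoters (47.6%) and 4477 of all 27025 promoters (16.6%). A match describes the letters in this window only.

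Outside these lists, the ranking again took called genes with a mean of at least 1 CPM in every group. It left out genes with predicted or clone names. Furthest above additivity was Tnfrsf9, the costimulatory receptor 4-1BB. It had 111, 110 and 106 CPM in LPS+MP cells, against 220, 244 and 282 CPM in LPS cells. It had 5.05, 5.79 and 3.96 CPM in MP cells, against 89.0, 93.8 and 85.3 CPM in control cells. Microparticles lowered it by 1.17 with LPS and by 3.94 without, and the interaction was 2.76 ± 0.15 (limma adjusted p = 5.9e-08; 2.75 without LPS replicate 2). It was the 1 gene of the 120 whose difference in CPM had the opposite sign (-55.1).

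Cx3cr1, the fractalkine receptor, had 0.881, 0.930 and 1.08 CPM in LPS+MP cells, against 0.995, 0.996 and 0.965 CPM in LPS cells. It had 14.1, 15.4 and 15.8 CPM in MP cells, against 71.0, 74.9 and 76.6 CPM in control cells. Its level with LPS was near 1 CPM whether or not microparticles were present, which leaves little room for a fall on this scale, and the interaction was 2.21 ± 0.16. Frmd6, a FERM domain protein linked to the Hippo pathway, was not low under LPS. It had 42.4, 38.3 and 41.2 CPM in LPS+MP cells, against 33.1, 33.3 and 33.8 CPM in LPS cells, and 8.15, 7.22 and 6.61 CPM in MP cells, against 27.6, 31.7 and 28.8 CPM in control cells, with an interaction of 2.14 ± 0.13.

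Id3, an inhibitor of basic helix-loop-helix factors, had 59.3, 64.3 and 56.1 CPM in LPS+MP cells, against 31.6, 29.6 and 33.3 CPM in LPS cells. It had 13.8, 15.9 and 17.1 CPM in MP cells, against 33.7, 35.4 and 38.7 CPM in control cells. Neither pair overlapped and the directions differed, for an interaction of 2.06 ± 0.14. Hdac7, a class IIa histone deacetylase, had an effect of -0.23 with LPS and -2.28 without, and Arhgap22, a GTPase-activating protein for Rac, 0.88 and -1.20; their interactions were 2.05 ± 0.16 and 2.07 ± 0.21. Vim, the intermediate filament protein vimentin, had 1447, 1523 and 1523 CPM in LPS+MP cells, against 1451, 1482 and 1627 CPM in LPS cells, and 1526, 1594 and 1589 CPM in MP cells, against 3617, 3694 and 3610 CPM in control cells. LPS, microparticles and both together thus left Vim at like levels; its interaction of 1.19 ± 0.10 fell to 0.89 under quantile normalization.

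Genes of cell division, DNA replication and recombination repair had more lower calls than any other of the 46 lists. The median effect of microparticles on each of these lists was below 0 in both settings, and further below 0 on the log2 scale in LPS-treated cells. Of 30 mitosis genes, 17 had a lower interaction and 0 a higher one (limma). With no demand on size, 28 were lower, against 15.5% of all genes. In the presence of LPS 28 of the 30 fell with microparticles, against 0 in its absence. Over all genes 3.68% had a lower interaction, 3.89% fell with microparticles with LPS and 1.85% fell without. Of 38 replication genes, 14 had a lower interaction and 30 fell with microparticles with LPS, against 6 without. Of 21 homologous recombination and Fanconi genes, 14 had a lower interaction and 15 fell with LPS, against 0 without. Without LPS replicate 2 the lower calls numbered 17, 10 and 11 in these 3 lists.

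**Figure D5:**
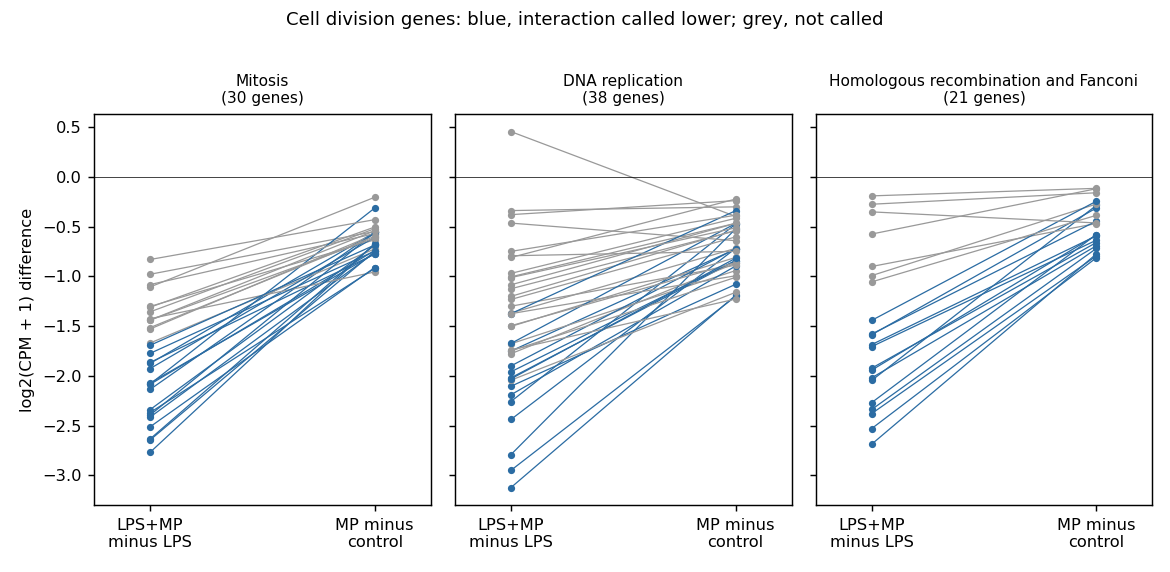
Effect of microparticles on each gene of 3 cell division lists as a log2(CPM + 1) difference, in cells with LPS (left of each panel) and without LPS (right), with a line joining the values of a gene. Blue genes have a lower interaction; the medians are -1.82 with LPS and -0.62 without for Mitosis, -1.50 and -0.72 for DNA replication, and -1.69 and -0.47 for Homologous recombination and Fanconi, and Cdt1 is the replication gene above 0 with LPS.

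Top2a, the topoisomerase that untangles replicated chromosomes, had 17.6, 17.9 and 17.6 CPM in LPS+MP cells, against 84.5, 108 and 101 CPM in LPS cells. It had 417, 400 and 403 CPM in MP cells, against 606, 621 and 571 CPM in control cells. Microparticles lowered it by 2.39 with LPS, against a difference of -0.56 without, and the interaction was -1.84 ± 0.11 (limma adjusted p = 1e-07; -1.76 without LPS replicate 2). In CPM the loss was larger without LPS, so the difference of differences was positive (113). It was positive in 29 of 30 mitosis genes, 32 of 38 replication genes and 15 of 21 recombination genes, and so it was for Rrm2, Aurkb, Mcm5, Mcm6, Pole, Brca1, Exo1, Casc5 and E2f8, described next.

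Rrm2, the ribonucleotide reductase subunit that limits nucleotide supply, had 4.84, 4.94 and 6.39 CPM in LPS+MP cells, against 46.2, 61.6 and 56.5 CPM in LPS cells. It had 95.8, 107 and 114 CPM in MP cells, against 246, 245 and 235 CPM in control cells, and fell with microparticles in both settings, with an interaction of -1.93 ± 0.16. Aurkb, the mitotic kinase Aurora B, had 1.74, 2.15 and 2.64 CPM in LPS+MP cells, against 15.4, 15.9 and 16.2 CPM in LPS cells, and its interaction was -1.66 ± 0.15. At such low levels the added 1 shortens the log2 difference: with 0.1 added, the interaction of Aurkb was -2.06.

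Mcm6, a subunit of the replicative helicase, had 23.6, 23.7 and 24.2 CPM in LPS+MP cells, against 97.4, 126 and 115 CPM in LPS cells. It had 216, 216 and 223 CPM in MP cells, against 390, 417 and 415 CPM in control cells. Its interaction was -1.29 ± 0.12, and that of the helicase subunit Mcm5 was -1.18 ± 0.13. Pole, the catalytic subunit of DNA polymerase epsilon, had the lowest value of the replication list, -2.27 ± 0.21. Cdt1, a licensing factor named here after its values were seen, ran the other way with 0.85 ± 0.17, short of the size threshold.

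Brca1, the recombination repair and breast cancer susceptibility gene, had 7.99, 6.65 and 8.58 CPM in LPS+MP cells, against 29.8, 36.5 and 31.4 CPM in LPS cells. It had 52.3, 48.0 and 55.2 CPM in MP cells, against 77.3, 79.6 and 77.2 CPM in control cells, and its interaction was -1.36 ± 0.15. Exo1, an exonuclease of mismatch repair and end resection, had the lowest value of that list, -1.91 ± 0.21. Casc5, the kinetochore scaffold KNL1, and E2f8, a repressive E2F factor, had interactions of -2.41 ± 0.28 and -2.03 ± 0.16. E2f8 was under 1 CPM in LPS+MP cells, and its value was -3.07 with 0.1 added in place of 1. Ccnd2, cyclin D2, rose with LPS alone and so differed from these genes: it had 12.5, 11.6 and 11.3 CPM in LPS+MP cells, against 25.9, 33.7 and 27.0 CPM in LPS cells, and an interaction of -1.38 ± 0.20.

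The promoters of Mcm5 and Mcm6 are shown because they hold matches to the E2F-type letters TTTNNCGC on either strand, in capitals (overlapping matches on both strands in Mcm5 and in the first block of Mcm6). They were chosen after the match was found. Each is the 250 bases before the RefSeq start on GRCm38.p6 along the gene's strand, at chr8:75109259-75109508 (plus strand) for Mcm5 and chr1:128359706-128359955 (minus strand) for Mcm6.

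Mcm5: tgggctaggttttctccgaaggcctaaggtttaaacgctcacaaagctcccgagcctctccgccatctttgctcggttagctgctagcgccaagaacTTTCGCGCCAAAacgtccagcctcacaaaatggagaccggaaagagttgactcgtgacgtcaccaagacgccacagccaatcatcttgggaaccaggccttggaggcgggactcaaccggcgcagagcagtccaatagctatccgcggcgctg
Mcm6: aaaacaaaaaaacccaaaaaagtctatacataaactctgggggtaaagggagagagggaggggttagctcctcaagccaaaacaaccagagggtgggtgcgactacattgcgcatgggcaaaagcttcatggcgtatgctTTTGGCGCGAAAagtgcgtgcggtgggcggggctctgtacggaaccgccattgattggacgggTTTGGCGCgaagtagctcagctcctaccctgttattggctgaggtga

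Among promoters in the RefSeq table, these letters occur in 9 of 31 of the replication list (29.0%), 4 of 14 of the recombination list (28.6%), 2 of 26 of the mitosis list (7.69%) and 1186 of all 27025 (4.39%).

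The 200 genes that fell with microparticles in LPS-treated cells alone past the threshold also included genes that LPS raises, among them Ppbp, Ccl6, Mmp8 and Il10. Of 16 tested chemokines, 4 had a lower interaction and 0 a higher one (limma), against 3.68% and 1.02% of all genes. The list median was -0.74, against -0.08 over all genes, and 5 chemokines had a lower interaction without LPS replicate 2. Counted with no demand on size, 10 were lower and 0 higher, against 15.5% and 6.45% of all genes. Ppbp, which encodes CXCL7, had 2.27, 3.32 and 4.05 CPM in LPS+MP cells, against 19.0, 10.9 and 17.3 CPM in LPS cells. It had 3.79, 3.26 and 2.50 CPM in MP cells, against 1.64, 1.44 and 1.99 CPM in control cells, and its interaction was -2.61 ± 0.29. Ccl6, a CC chemokine of mouse macrophages, had an effect of -1.63 with LPS and 0.11 without, and an interaction of -1.75 ± 0.29.

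Cxcl10, the interferon-induced ligand of CXCR3, had 36.9, 34.8 and 28.5 CPM in LPS+MP cells, against 48.7, 48.7 and 37.3 CPM in LPS cells, and 1.88, 1.82 and 1.79 CPM in MP cells, against 0.590, 0.314 and 0.137 CPM in control cells. Its interaction of -1.50 ± 0.22 therefore uses levels under 2 CPM in both groups without LPS, and was -2.67 with 0.1 added in place of 1. The type I interferon response list had a median LPS effect of 3.23 in cells with microparticles and 3.46 in cells without. Among its 34 genes there were 3 lower and 0 higher calls (limma), against 3.68% and 1.02% of all genes. The list median was -0.34, against -0.08 over all genes. Dropping the demand on size gave 13 lower and 0 higher, against 15.5% and 6.45% of all genes. The members called were Ifit1, Ifi44 and Oas1g. Without LPS replicate 2 the list had 2 lower calls and Ifi44 was not called. Oas1g lay near the threshold at -1.04 ± 0.17. Ifit1, at -1.25 with 1 added, was -2.71 with 0.1 added, since it averaged 0.22 ± 0.13 CPM in control cells (SD, n = 3).

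Mmp8, neutrophil collagenase, had 5.63, 3.89 and 7.07 CPM in LPS+MP cells, against 51.1, 51.0 and 38.3 CPM in LPS cells. It had 0.891, 0.883 and 1.18 CPM in MP cells, against 1.43, 1.44 and 2.15 CPM in control cells. Microparticles lowered it with LPS by 2.89, and the interaction was -2.47 ± 0.26. Il10, the anti-inflammatory cytokine, had 5.70, 8.20 and 8.05 CPM in LPS+MP cells, against 33.8, 38.7 and 31.5 CPM in LPS cells, and 0.0246, 0.419 and 0.101 CPM in MP cells, against 1.40, 0.839 and 1.08 CPM in control cells. It was lower with microparticles in both settings; the interaction of -1.27 ± 0.24 became 0.089 with 0.1 added in place of 1, so its sign depends on the pseudocount.

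Of 25 tested identity and surface genes of the macrophage, 6 had a lower interaction and 1, Cx3cr1, a higher one, against 3.68% and 1.02% of all genes, with a median of -0.52 (the same counts without LPS replicate 2). Fcgr1, the high-affinity IgG receptor, had 222, 229 and 197 CPM in LPS+MP cells, against 430, 365 and 356 CPM in LPS cells. It had 82.0, 80.7 and 90 CPM in MP cells, against 42.9, 37.5 and 45.2 CPM in control cells. Microparticles went with a lower level in one setting and a higher one in the other, and the interaction was -1.82 ± 0.13.

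Marco, a scavenger receptor for particles and bacteria, had 980, 1076 and 1204 CPM in LPS+MP cells, against 2054, 2150 and 1988 CPM in LPS cells. It had 12.1, 15.4 and 17.1 CPM in MP cells, against 9.55, 7.57 and 9.21 CPM in control cells, and its interaction was -1.62 ± 0.16. Lyz2, lysozyme, had 1087, 913 and 947 CPM in LPS+MP cells, against 2114, 1855 and 1873 CPM in LPS cells, and 2909, 2675 and 2989 CPM in MP cells, against 2414, 2244 and 2521 CPM in control cells. LPS+MP cells held the lowest Lyz2 level of the 4 groups, for an interaction of -1.24 ± 0.13.

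Of 25 tested TLR receptors and adaptors, 4 had a lower interaction and 0 a higher one (limma), against 3.68% and 1.02% of all genes. The list median was -0.28, against -0.08 over all genes. Interactions with no demand on size were lower in 6 and higher in 1, against 15.5% and 6.45% of all genes. In each setting 3 fell with microparticles, against 3.89% of all genes with LPS and 1.85% without. Tlr8, an endosomal receptor for RNA, had 6.89, 5.24 and 7.34 CPM in LPS+MP cells, against 42.5, 74.3 and 41.3 CPM in LPS cells, and 20.6, 19.1 and 19.9 CPM in MP cells, against 38.3, 45.7 and 44.2 CPM in control cells. It fell with microparticles in both settings, with an interaction of -1.74 ± 0.25 and of -1.47 without LPS replicate 2. Tlr1 and Tlr2, which pair to sense bacterial lipopeptides, had interactions of -1.22 ± 0.14 and -1.18 ± 0.14, and neither was called as a fall with LPS, where the effects of microparticles were -0.80 and -0.21. The lectins Mgl2 and Clec10a, used as markers of alternative activation, had -1.67 ± 0.14 and -1.26 ± 0.10.

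In the opposite class, microparticles raised 28 genes in LPS-treated cells that were not called without LPS. The cytokine list was mixed, with 3 higher and 5 lower calls among 23 genes, against 1.02% and 3.68% of all genes. Its median was 0.12, or -0.034 without LPS replicate 2 and -0.094 with 0.1 added in place of 1, where 1 was higher and 6 lower. Lif, a cytokine of the interleukin-6 family, had 68.8, 45.3 and 40.8 CPM in LPS+MP cells, against 9.33, 3.98 and 8.41 CPM in LPS cells. It had 0.866, 1.40 and 0.582 CPM in MP cells, against 0.587, 0.237 and 0.261 CPM in control cells. The interaction was 2.20 ± 0.37 (limma adjusted p = 0.00057) and 1.87 without LPS replicate 2, which held the lowest of the LPS values.

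Csf3, the granulocyte colony-stimulating factor, had 871, 775 and 820 CPM in LPS+MP cells, against 307, 260 and 349 CPM in LPS cells, and was at most 0.147 CPM in cells without LPS. Its interaction of 1.35 ± 0.15 was 0.88 with 0.1 added in place of 1, and no longer called, since the effect without LPS is read from values near 0. The difference of 1.43 with LPS does not depend on those groups.

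Klf2, a zinc finger factor that restrains macrophage activation, had 27.9, 26.6 and 22.6 CPM in LPS+MP cells, against 4.36, 4.20 and 4.25 CPM in LPS cells. It had 33.2, 40.6 and 35.3 CPM in MP cells, against 28.8, 30.4 and 25.8 CPM in control cells. Klf2 fell with LPS alone, and with microparticles present its level lay close to that of control cells; the interaction was 1.99 ± 0.16 (limma adjusted p = 7.6e-07).

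Dusp5, a phosphatase that inactivates ERK, had 131, 124 and 124 CPM in LPS+MP cells, against 45.4, 23.2 and 49.3 CPM in LPS cells. It had 26.7, 28.6 and 24.2 CPM in MP cells, against 19.6, 22.6 and 25.4 CPM in control cells. The first pair was separate and the second overlapped, and the interaction was 1.50 ± 0.28 (1.17 without LPS replicate 2). Maff, a small Maf factor, had an interaction of 1.09 ± 0.19 that was 0.95, and no longer called, without LPS replicate 2. Egr3, an immediate early zinc finger factor at levels under 5 CPM, went the other way with -1.27 ± 0.29, or -0.96 and no call under quantile normalization and -1.97 with 0.1 added in place of 1.

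Several of the best-known LPS-induced transcripts had no called interaction. Tnf had 1096, 974 and 1014 CPM in LPS+MP cells, against 416, 503 and 472 CPM in LPS cells, and 131, 155 and 153 CPM in MP cells, against 90.9, 82.1 and 89.4 CPM in control cells; its interaction was 0.42, with a 95% interval from 0.16 to 0.68. Il6 had 421, 442 and 421 CPM in LPS+MP cells, against 198, 248 and 180 CPM in LPS cells, and 1.46, 0.982 and 0.406 CPM in MP cells, against 0.0205, 0.000171 and 0.0194 CPM in control cells, and its interaction was 0.14 (interval -0.35 to 0.63). That value turned to -2.02, and was called lower, with 0.1 added in place of 1, since log2 differences between such low values grow as the pseudocount shrinks.

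Il1b had 1178, 1175 and 1118 CPM in LPS+MP cells, against 1566, 1482 and 1297 CPM in LPS cells, and 0.322, 0.516 and 0.178 CPM in MP cells, against 0.102, 0.00106 and 0.163 CPM in control cells. Its interaction was -0.61 (interval -0.92 to -0.30), and with 0.1 added in place of 1 it was -1.57 and called. Nos2, the inducible nitric oxide synthase, had 124, 107 and 82.6 CPM in LPS+MP cells, against 498, 424 and 544 CPM in LPS cells, and 1.41, 0.0965 and 0.254 CPM in MP cells, against 6.15, 7.27 and 6.02 CPM in control cells. Microparticles lowered Nos2 by 2.23 with LPS and 2.32 without, and the interaction was 0.10, with a wide interval from -0.58 to 0.78. It was 1.56, and not called, with 0.1 added in place of 1, and its difference in CPM was negative (-378). Nlrp3, the inflammasome sensor, was just short of the size threshold at 0.96 ± 0.08, and called with median-ratio scaling, with 428, 427 and 426 CPM in LPS+MP cells, against 274, 277 and 271 CPM in LPS cells.

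Just short of the threshold on the other side were Ccl3, the chemokine MIP-1 alpha, with -0.99 ± 0.17, and Cxcl2, the neutrophil chemokine MIP-2, with -0.95 ± 0.15. Ccl3 was -1.13, and called, without LPS replicate 2, and also called without LPS+MP replicate 1 or 3, MP replicate 3 or control replicate 3. Cxcl2 was called without LPS+MP replicate 1 or MP replicate 3. Both were called with library quality weights, and Cxcl2 under quantile normalization (-1.03). Their differences in CPM were positive, 1163 for Ccl3 and 1427 for Cxcl2. Microparticles raised Cxcl2 by 1.56 with LPS and 2.51 without. Among metabolic lists, sterol synthesis and uptake had 0 called genes of 23 (limma), against 4.7% of all genes. The list median was 0.36. Its genes with no demand on size were 8 higher and 1 lower, against 6.45% and 15.5% of all genes. Insig1, a sterol-regulated retention protein, was 0.52 ± 0.12, and Scd2, a stearoyl-CoA desaturase that microparticles lowered by 1.35 with LPS and 1.39 without, was 0.03 (interval -0.22 to 0.29).

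Mitochondrially encoded transcripts, measured here after poly(A) selection, had 3 lower and 0 higher calls among 13 (limma). The shares of all genes were 3.68% and 1.02%. The list had 2 lower calls without LPS replicate 2. With no demand on size 8 were lower and 0 higher, against 15.5% and 6.45% of all genes. The members called were mt-Co1 (-1.16 ± 0.20), mt-Nd5 (-1.17 ± 0.20) and mt-Nd4l (-1.44 ± 0.47). None of the 3 held throughout: mt-Nd4l was -0.87 without LPS replicate 2, mt-Co1 was -0.30 under quantile normalization, and mt-Nd5 was not called after an adjustment for GC content.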

How the data were processed

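The deposited table holds 12 columns headed RPKM and a column headed logCPM, read as log2 CPM. The 12 columns were read as CPM scaled by the authors. Only their values support that reading: column sums run from 998867 to 999273, and their log2 mean lay within an SD of 0.20 of the deposited logCPM. Values go down to 1.03e-18 where not 0, so whole reads were not recovered, no count test was run and depth is unknown. The submitters' processing notes name TopHat2 2.1.1, Trimmomatic 0.36, FastQC 11.5, edgeR, DESeq2 and HTSeq without saying what each did. The genome build is not given in the sources used here; 71.1% of 11655 matched transcripts share an end with GENCODE M21 on GRCm38. Libraries were polyadenylated RNA made with a directional kit, per the labels' protocols; the strand setting of the counting is unstated, so overlapping and near-identical genes are uncertain. The submitters call the replicates biological and do not say how cultures were kept apart, so p-values measure the spread between these samples.

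Group means were fitted with limma 3.58.1 (R 4.3.3) to log2(CPM + 1) of all 12 libraries, with a variance trend; 8 residual degrees of freedom remained. Lists and members were chosen with earlier results of these data known. Genes named are the 12 called interactions furthest from 0 in each direction (mean of at least 1 CPM in every group). Genes with predicted or clone names (Gm, LOC, BC, AK and Rik) were left out of these 12. Also named are up to 4 called members of each of 46 pathway lists, and a preset list. Where a list had none called, its 2 members furthest from 0 are named. Not all are described. Named outside the rule, after their values were seen, are 2810417H13Rik, Cdc6, Cdt1, Clspn, Cytip, Extl1, Mcm5, Mcm7 and Neat1. Alternatives were quantile and median-ratio normalization, a replicate block, no variance trend, library weights, no size threshold, leaving out each library, a pseudocount of 0.1, and a minimum of 5 or no minimum; an adjustment for GC content was added after seeing the data. Promoters are RefSeq's (GRCm38.p6).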

Additional observations from a re-analysis of the deposited data

Results flagged for a closer look

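The effect of microparticles differed between cells with LPS and cells without it, by the test of the difference itself (the interaction term in limma), in 120 genes where it was higher with LPS and in 432 genes where it was lower. The text above describes these genes.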

How the results depend on the processing

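The 552 calls (120 higher, 432 lower) numbered 524 to 615 when each library was left out in turn, with 454 to 518 of the original calls among them, and 376 calls held in all 12 such fits. Without the size threshold there were 2583 (757 higher and 1826 lower), and quantile normalization gave 193 higher. A fit with a replicate block gave 552 calls, 549 of them shared. Whether libraries of the same number deviate together was not settled. Their residuals correlated at 0.018 in the median of 18 pairs, between -0.247 and 0.158. Residual correlations with libraries of the other groups were also averaged by replicate number, and for 7 of 12 libraries their own number had the highest mean. An adjustment for GC content, chosen after seeing the data, left 490 calls, 462 of them shared. The median interaction of the ribosomal protein list, 0.23, was 0.055 with library quality weights.

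Interactions that changed sign were those near 0 or read from values under 1 CPM. With a pseudocount of 0.1, Il10 was 0.089 and not called, and Il6 was -2.02 and called. Under quantile normalization Scd2 was -0.21 and Sqstm1 -0.22, and with library quality weights Sqstm1 was -0.016. Leaving out 1 library each gave -0.079 to 0.33 for Il6, -0.12 to 0.44 for Nos2 and -0.046 to 0.12 for Scd2. The cause of these changes was not tested. Depth per library is unknown, so counting error cannot be set beside the spread between libraries, and p-values rest on 3 libraries a group.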
